A study of Mus musculus with 2 samples.

Results

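The Zfp genes are mouse genes whose names are Zfp followed by a number, most of which encode proteins with zinc fingers of the C2H2 type, small loops folded around a zinc ion that read DNA or RNA. Their members were all genes with such a symbol, apart from Zfp36, which encodes an mRNA decay factor, that had at least 1 probe set naming that gene alone. Members were selected on the measured level of these arrays, as each had to reach a log2 intensity of 5 (an intensity of 32) on at least 1 of them, and were not selected on the difference between the arrays. Of 304 such genes on the array, 246 reached this floor and 58 did not, among 10267 measured genes in all.

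The cells were urogenital sinus mesenchyme (UGM) cells, the stroma around the epithelium from which the prostate grows, from male C57BL/6 mice at day 16. The T+E2 culture was given 12 nM testosterone and 120 pM estradiol for 72 h, and the untreated culture was kept as long without hormone. Steroid-poor (charcoal-stripped) serum at 5% and the antibiotic Plasmocin at 5 µg/ml were present for both cultures, in RPMI 1640. There was 1 array per condition, so every difference below is between 2 arrays, with no replicate check and no test. The sample titles say 24 h where all other labels say 72 h, and the descriptions call the untreated cells confluent but the T+E2 cells nearly so, while the growth protocol gives 80% for both. Of 10 mesenchymal markers, 8 were measured, among them Vim (log2 15.23 with T+E2 and 15.13 untreated) and Pdgfra (12.96 and 12.29). Of 20 markers of epithelium, endothelium, leukocytes and neural cells, 2 reached the floor, Cdh1 (7.57 with T+E2 and 5.37 untreated) and Tek (10.02 and 9.82).

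Many Zfp proteins carry a KRAB box, a stretch that recruits the corepressor Trim28 and through it the histone methyltransferase Setdb1, and so lays down silent chromatin at the DNA the fingers bind. KRAB zinc finger proteins are known for silencing transposable elements and for guarding imprinted genes. Their genes multiplied by tandem duplication and lie in clusters along the chromosomes.

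The sequences shown here come from a cluster on chromosome 17 whose members were nearly all lower with T+E2. RefSeq promoters (GRCm38.p6, 250 bases before to 50 after a transcription start) of 5 of its genes are given. They are Zfp943 (chr17:21962309-21962608, + strand), Zfp758 (chr17:22361213-22361512, + strand), Zfp820 (chr17:21845710-21846009, - strand), Zfp994 (chr17:22225565-22225864, - strand) and Zfp945 (chr17:22867085-22867384, - strand). Capitals mark CACGTGACC or its reverse complement GGTCACGTG, and each promoter runs 5′ to 3′. The promoters of Zfp943 and Zfp758 are near copies, and those of Zfp820 and Zfp994 match at 75% of aligned positions. That of Zfp945 lacks the marked letters, and its highest-scoring alignment within the cluster, with Zfp946, had 63.6% identical positions.
Zfp943: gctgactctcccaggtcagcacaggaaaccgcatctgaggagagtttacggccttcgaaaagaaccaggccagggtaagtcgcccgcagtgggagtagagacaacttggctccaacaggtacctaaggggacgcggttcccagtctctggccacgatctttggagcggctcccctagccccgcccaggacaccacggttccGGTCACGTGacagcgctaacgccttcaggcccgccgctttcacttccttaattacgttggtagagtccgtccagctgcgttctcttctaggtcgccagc
Zfp758: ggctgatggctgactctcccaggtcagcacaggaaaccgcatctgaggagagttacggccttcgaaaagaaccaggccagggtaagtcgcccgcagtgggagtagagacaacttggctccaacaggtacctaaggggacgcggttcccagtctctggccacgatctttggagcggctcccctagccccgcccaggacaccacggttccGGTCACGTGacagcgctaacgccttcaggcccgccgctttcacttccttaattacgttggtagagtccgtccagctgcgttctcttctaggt
Zfp820: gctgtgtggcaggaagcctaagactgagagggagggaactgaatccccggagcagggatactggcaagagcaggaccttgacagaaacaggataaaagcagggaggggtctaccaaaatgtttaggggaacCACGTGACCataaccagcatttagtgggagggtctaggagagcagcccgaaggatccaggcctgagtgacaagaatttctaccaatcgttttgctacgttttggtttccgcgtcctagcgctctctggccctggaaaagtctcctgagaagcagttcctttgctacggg
Zfp994: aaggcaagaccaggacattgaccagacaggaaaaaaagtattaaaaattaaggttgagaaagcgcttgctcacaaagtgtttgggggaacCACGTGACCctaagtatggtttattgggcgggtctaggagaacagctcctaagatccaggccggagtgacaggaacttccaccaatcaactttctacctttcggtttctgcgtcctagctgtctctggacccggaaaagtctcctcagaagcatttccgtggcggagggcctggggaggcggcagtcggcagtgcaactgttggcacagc
Zfp945: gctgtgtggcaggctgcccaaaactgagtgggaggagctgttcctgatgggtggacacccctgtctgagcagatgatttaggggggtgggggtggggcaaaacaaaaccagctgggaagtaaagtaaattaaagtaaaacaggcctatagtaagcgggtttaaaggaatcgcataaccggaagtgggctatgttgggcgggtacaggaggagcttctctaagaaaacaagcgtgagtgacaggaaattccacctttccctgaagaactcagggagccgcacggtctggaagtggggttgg

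As a whole, the Zfp genes differed in both directions between the conditions. Of the 246 measured members, 13 (5.28%) showed a level at least 2-fold above untreated with T+E2, where 4.96% of all measured genes were, and 17 (6.91%) were at least 2-fold lower, where 4.01% of all measured genes were. The other 216 lay between. Their median log2 difference, T+E2 minus untreated, was 0.00 (interquartile range -0.43 to 0.41), against 0.07 (-0.32 to 0.45) over all measured genes. Below 0 lay 122 members (49.6%), where 43.7% of all measured genes did, and above 0 lay 123, where 55.8% of all measured genes did. Differences under 1.5-fold were found for 154 members (62.6%), against 68.7% of all measured genes. In a cell population, fewer cells that express a gene and less RNA per cell cannot be told apart.

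**Figure D1:**
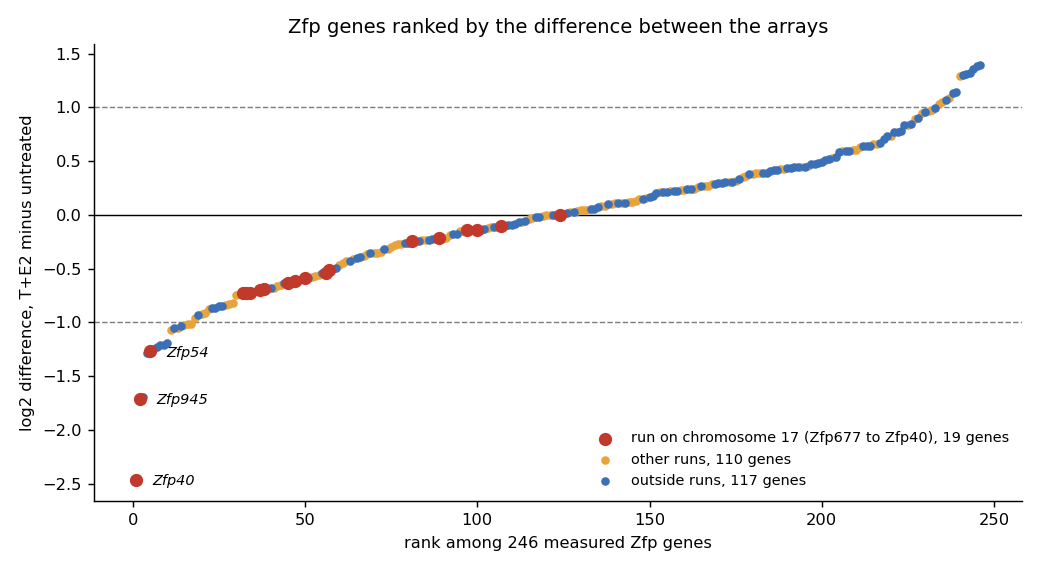
The log2 difference (T+E2 minus untreated, vertical axis) of each of the 246 measured Zfp genes is plotted by rank. The points of the chromosome 17 cluster (large, red) lie below 0 except for Zfp677 at 0.00, and dashed lines mark 2-fold.

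Both arrays covered nearly the same members. On both arrays 242 reached the floor, on the T+E2 array alone 2 did, and on the untreated array alone 2 did. The floor, which chose the members, passed close to a few of them. Just inside it were Zfp429 (log2 5.04 with T+E2 and 5.04 untreated), Zfp784 (5.13 and 4.29) and Zfp14 (5.16 and 5.03), and just outside it were Zfp628 (4.95 and 3.03), Zfp941 (4.83 and 4.85) and Zfp811 (4.15 and 4.76). Over 1 probe set was measured for 80 members, and the probe sets shared a direction in 63 of these and disagreed in 17.

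Zfp40 was the member with the largest difference. Its probe set with the highest mean read an intensity of 194.95 with T+E2 and 1077 untreated, 5.52-fold lower with T+E2 (log2 difference -2.47). A dimmer probe set of the gene lay close to the floor on both arrays (31.7 with T+E2 and 33.5 untreated) and differed by -0.07, so the difference rests on 1 probe set. Zfp945, its neighbour on chromosome 17, read 252 with T+E2 and 827 untreated, 3.28-fold lower, and its 3 measured probe sets ranged from -1.78 to -1.23. Zfp950, a gene of chromosome 19 outside any such cluster, read 315 with T+E2 and 1022 untreated, 3.24-fold lower, with the other probe set at -1.01.

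Zfp57 was also among the 10 members that were lowest with T+E2. It encodes a KRAB zinc finger protein that keeps DNA methylation at imprinting control regions in the early embryo. Its single measured probe set read 792 with T+E2 and 1834 untreated, 2.32-fold lower. Zfp932, whose protein silences endogenous retroviruses in mouse embryonic stem cells, read 534 with T+E2 and 1217 untreated, 2.28-fold lower. Zfp277, which encodes a partner of the Polycomb protein Bmi1, read 743 with T+E2 and 1758 untreated, 2.37-fold lower. These 3 genes were well above the floor on both arrays, and each value comes from 1 measured probe set.

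The remaining genes of the 10 were Zfp692 (intensity 261 with T+E2 and 635 untreated, log2 difference -1.28), Zfp54 (347 and 835, -1.27), Zfp949 (82.1 and 193, -1.23) and Zfp248 (60.3 and 139, -1.21). Beyond them, 7 more genes passed 2-fold on the low side, and they are named because their number completes the count. Zfp560, Zfp930, Zfp873, Zfp551, Zfp719, Zfp101 and Zfp120 differed by -1.07 to -1.01. A dimmer probe set of Zfp560 lay on the other side, at 0.21.

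On the high side the largest difference measured on both arrays was that of Zfp362, at 441 with T+E2 and 169 untreated (2.61-fold). Zfp319 read 705 with T+E2 and 275 untreated, and Zfp592 read 591 with T+E2 and 237 untreated. Both had all measured probe sets on the high side, with the smallest difference at 0.53 for Zfp319 and at 0.04 for Zfp592. The last of these came from a probe set that reached the floor with T+E2 alone. Zfp697 (349 with T+E2 and 141 untreated, 1.31) and Zfp316 (205 and 83.9, 1.29) followed at close to the same size.

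The next 5 genes all had long genomic spans, a point taken up below with the spans. Zfp469, whose human counterpart is mutated in brittle cornea syndrome, a disorder of collagen fibres, read 1015 with T+E2 and 411 untreated (2.47-fold higher). Zfp462, which encodes a chromatin regulator of early development, read 4482 with T+E2 and 2024 untreated (1.15), and its other measured probe set differed by 2.26. Zfp704 read 1108 with T+E2 and 506 untreated (1.13), and Zfp407 read 587 with T+E2 and 276 untreated (1.09). Zfp521, which encodes a factor that holds mesenchymal precursors back from the fat cell fate, read 1909 with T+E2 and 908 untreated (1.07), with the other probe set at 1.24.

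Zfp438 reached the floor with T+E2 alone, at 84.3 with T+E2 and 29.98 untreated, and was at least 2.63-fold higher. It was a member through the T+E2 array alone, so its side was set by the floor. Zfp784 (34.9 with T+E2 and 19.6 untreated) was the other member of that kind and lay near the floor. In the untreated culture alone, Zfp934 (16.2 with T+E2 and 60.7 untreated) and Zfp954 (25.8 and 37.6) reached it, and against the floor they were at least 1.90-fold and at least 1.17-fold lower. Their side, too, was set by the floor. Zfp84 (1.05) and Zfp446 (1.03) complete the 13 genes on the high side, which include Zfp438. Zfp84 had 3 measured probe sets, at -0.72, 0.23 and 1.05.

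The Zfp genes were also described by their place along the chromosomes. A run was taken as at least 3 Zfp genes with at most 3 other protein-coding genes between neighbours. The RefSeq gene table held 32 such runs with 194 Zfp genes, of which 129 were measured. In runs, the median log2 difference was -0.12, with 4 genes (3.10%) at least 2-fold higher, 8 (6.20%) lower and 74 (57.4%) below 0. Outside runs, 117 measured genes had a median of 0.18, with 9 (7.69%) higher, 9 (7.69%) lower and 48 (41.0%) below 0. Over all measured genes these shares were 4.96% higher, 4.01% lower and 43.7% below 0. Long genomic spans, as classed below, were held by 6.98% of members in runs and 21.4% of those outside. With the trend on span described below subtracted, the medians were -0.06 in runs and 0.15 outside. The difference between members in and outside runs was not tested.

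The run with the most measured members lies on chromosome 17. The run from Zfp677 to Zfp40 on chromosome 17 holds 20 Zfp genes, and 19 were measured. Below 0 lay 18 of the 19, where 43.7% of all measured genes were below 0, and the median was -0.62 (interquartile range -0.73 to -0.23). At least 2-fold lower were 3 of the 19 (Zfp40, Zfp945 and Zfp54), where 4.01% of all measured genes were, and 0 were higher, where 4.96% were. Zfp677, at the near end, was the exception, at a log2 intensity of 7.48 on both arrays. Without this run, the 110 members in other runs had a median of -0.00, with 56 below 0. Elsewhere on chromosome 17, 17 Zfp genes were measured, with 12 below 0 and a median of -0.18. The run was chosen for description after its values were seen, among 32 runs.

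The size of the difference varied along the run, and for some genes with the probe set. After Zfp677 came Zfp54 (log2 intensity 8.44 with T+E2 and 9.71 untreated), Zfp51 (9.45 and 9.99), Zfp53 (8.98 and 9.11) and Zfp52 (9.86 and 10.48). In the middle, Zfp820 read 9.58 with T+E2 and 10.30 untreated, Zfp995 read 11.75 and 12.44, and Zfp994 read 10.50 and 10.60. Dimmer probe sets of Zfp820 and Zfp995 differed by -0.42 and -0.41, less than those that gave the values. On the probe sets that gave the values, the far end was steepest. It held Zfp945 at 7.98 with T+E2 and 9.69 untreated and Zfp40 at 7.61 and 10.07. The remaining 9 measured members of the run differed by -0.73 to -0.14, all of them lower with T+E2.

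Some neighbours in the run share a promoter region. Zfp942 and Zfp943 start head to head, their promoters overlapping by 194 bases, and differed by -0.51 and -0.73. Zfp944 and Zfp758 form another such pair, overlapping by 162 bases, and differed by -0.69 and -0.63. The pairs are near copies of each other. The promoters of Zfp943 and Zfp758, printed above, align over 293 positions with 292 identical bases (99.7%), and those of Zfp942 and Zfp944 over 275 positions with 274 identical (99.6%). Transcripts of genes copied so recently can share probe matches, and how far the probe sets separate them was not tested. In this run 1 of the 19 values, that of Zfp995, comes from a probe set that the manufacturer marks as matching several sequences.

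The letters CACGTGACC, chosen after the promoters had been read, were searched on both strands. They contain the shorter E-box CACGTG. In the run 7 of the 17 genes with a listed promoter held them, Zfp758, Zfp820, Zfp942, Zfp943, Zfp944, Zfp946 and Zfp994. Both head-to-head pairs, Zfp942 with Zfp943 and Zfp944 with Zfp758, are among these. The overlapping promoters of a pair can hold the same site, and the pairs are near copies of each other. Of genes with a listed promoter, 41.2% of the run held these letters, against 2.69% of all measured genes and 4.48% of all measured Zfp genes. The 7 genes with the match had a median difference of -0.63 (-0.73 to -0.11), and the 10 without it, Zfp945 among them, had -0.60 (-1.71 to 0.00). The ranges of these genes overlapped. The androgen response element (AGAACA, 3 bases of any kind, TGTTCT) and the estrogen response element (GGTCA, 3 bases of any kind, TGACC) were searched in the same way. In the 247 promoters listed for 201 of the 246 measured Zfp genes, 0 held either, while 0.00913% of all promoters of that length held the androgen element and 0.0700% the estrogen element. Among the 10704 promoters of all measured genes, 1 held the androgen element and 0 the estrogen element. Promoters of Zfp genes in runs had a median of 11 CpG pairs and those outside runs 18, against 21 over all measured genes.

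Other runs differed in direction. Of the 9 runs with at least 5 measured members, 3 had a median below 0 and 6 above it. The run from Zfp180 to Zfp94 on chromosome 7 had all 7 measured members above 0 with a median of 0.21, where 55.8% of all measured genes were above 0. Its largest difference was 0.74 (Zfp61), and single genes of the runs are named here after their values were seen. The run from Zfp84 to Zfp146, also on chromosome 7, had 7 of 11 above 0 and a median of 0.16. It ranged from -0.82 for Zfp566 to 1.05 for Zfp84. On chromosome 13, the run from Zfp712 to Zfp273 had 5 of 9 below 0 and a median of -0.00. A further run on chromosome 17, from Zfp871 to Zfp563, had 4 of 7 below 0 and a median of -0.27. The differences stand side by side in the plot of runs, and 8 of the 9 runs held members on both sides of 0. For the run from Zfp677 to Zfp40 this rests on Zfp677 alone, at 0.00. A further 22 runs had 1 to 4 measured members each, 54 in all. Of these members 36 lay below 0, where 43.7% of all measured genes did. All measured members lay below 0 in 11 of these runs and above 0 in 3. Among the 11, the runs from Zfp879 to Zfp2, Zfp970 to Zfp931 and Zfp445 to Zfp105 had 1 measured member each. Another of them, from Zfp81 to Zfp414, lies on chromosome 17. The run from Zfp990 to Zfp933 on chromosome 4 had 3 of 3 below 0 with a median of -0.68, and the run from Zfp781 to Zfp938 on chromosome 10 had 2 of 2, at -1.05 and -0.96. The run from Zfp236 to Zfp407 on chromosome 18 had 3 of 3 above 0 with a median of 0.66. All-lower runs were thus also found outside chromosome 17, on few genes each.

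**Figure D2:**
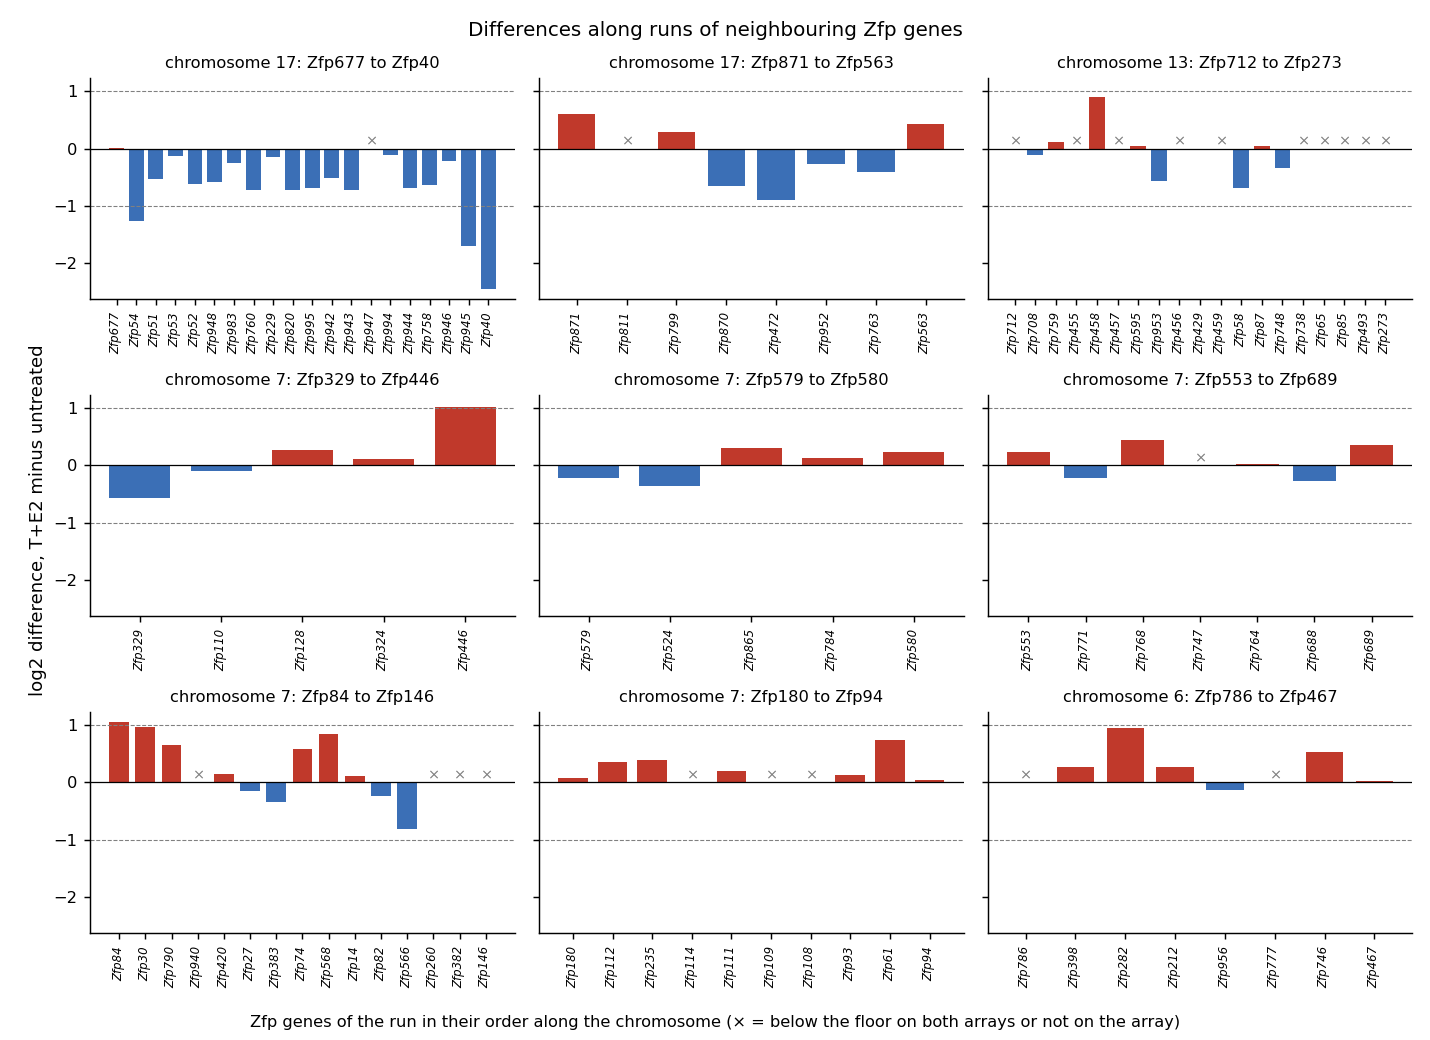
Bars give the log2 difference (T+E2 minus untreated) of each Zfp gene in its order along the 9 runs with at least 5 measured members, sorted by median. In the first panel 18 of 19 bars point down, to -2.47 at Zfp40, and in the run from Zfp180 to Zfp94 all 7 point up by 0.74 or less.

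Over all measured genes, the difference between the arrays also moved with genomic span, the length of a gene from its first to its last base. Among Zfp genes the long ones stood apart, while the short and middle ones lay close together. Measured genes were split into 3 classes of equal size at spans of 14572 and 41631 bases. Of 34 long Zfp genes, 8 (23.5%) were higher by 2-fold or more and 2 (5.88%) lower, where 10.1% and 1.58% of all long genes were. Their median was 0.60, against 0.36 over all long genes, and 9 (26.5%) lay below 0, where 24% of all long genes did. Of 126 Zfp genes of middle span, 2 (1.59%) were higher and 9 (7.14%) lower, where 2.61% and 3.61% of all such genes were, and 67 lay below 0 (53.2%, against 46% of all). Of 86 short Zfp genes, 3 (3.49%) were higher and 6 (6.98%) lower, where 2.08% and 6.77% of all short genes were, and 46 lay below 0 (53.5%, against 61.1% of all). Zfp genes had a median difference of -0.09 in the short class and -0.02 in the middle class, against -0.14 and 0.03 over all genes. The median span was 51479 bases for the 13 higher Zfp genes, 20613 for the 17 lower ones and 18104 for all 246.

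The chromosome 17 run was not short. Its median span was 23509 bases, and with a smooth trend of the difference on span over all genes subtracted its median was -0.67, again with 18 of 19 below 0, where 48.7% of all genes then were. The higher side was touched more. With that trend subtracted, Zfp469 stood at 0.76, Zfp462 at 0.69, Zfp704 at 0.63, Zfp521 at 0.49 and Zfp407 at 0.45, all under 2-fold, and Zfp438 at 0.96. Zfp319 (1.52), Zfp316 (1.32), Zfp362 (1.31), Zfp592 (1.12) and Zfp697 (1.12) stayed above it. In all, 10 Zfp genes were then higher and 15 lower, where 2.94% and 4.19% of all genes were. Whether span takes part in the differences of single genes was not tested.

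**Figure D3:**
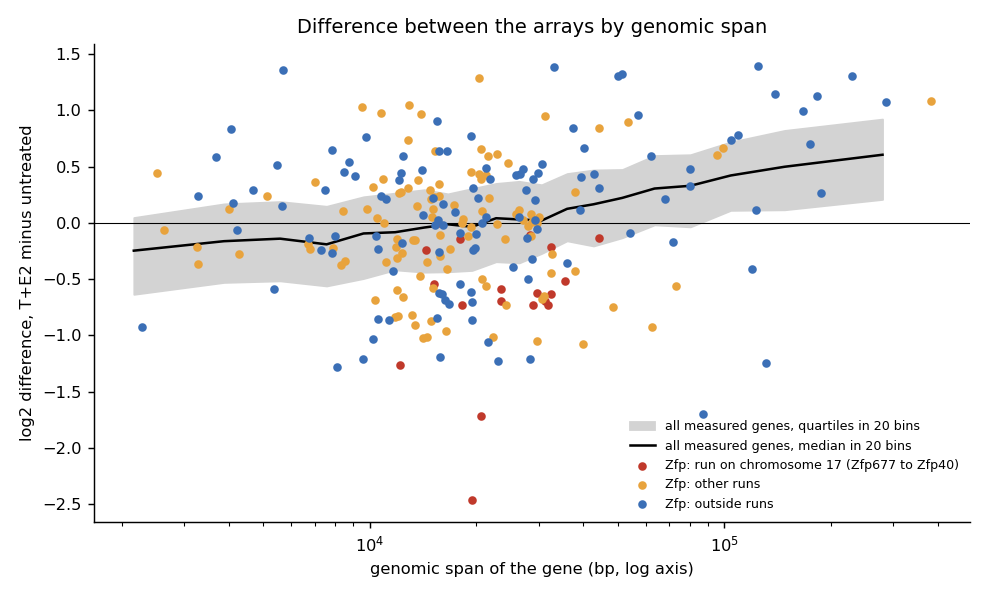
The log2 difference (T+E2 minus untreated) of each measured Zfp gene is plotted against its genomic span in bases on a log axis, over the median and quartiles of all measured genes in 20 bins (black line, grey band). Long Zfp genes sit mostly above 0 (25 of 34), and the chromosome 17 run (red) sits mostly below the black line at middle spans.

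Silencers of transposable elements and imprinted genes were listed by role. Of 14 listed genes 10 were measured, with 0 at least 2-fold higher, 2 lower (Zfp57 and Zfp932) and 8 between, and with a median of 0.01. The shares over all measured genes were 4.96% higher and 4.01% lower. Zfp809, which shuts down murine leukaemia viruses in embryonic cells, read 827 with T+E2 and 782 untreated. Zfp445, another guardian of imprints, read 1190 with T+E2 and 1605 untreated (-0.43), but its other probe sets differed by 0.06 and 1.19. Zfp568, which represses a placental Igf2 transcript in the mouse embryo, read 868 with T+E2 and 485 untreated (0.84). The members of this list thus differed in both directions.

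The corepressor machinery that KRAB proteins recruit was measured in the same arrays. Of 26 listed genes 23 were measured, with 0 at least 2-fold higher, 0 lower, 17 above 0 and a median of 0.26, where over all measured genes 4.96% were higher, 4.01% lower and 55.8% above 0. Trim28, the scaffold that binds the KRAB box, stood at a log2 intensity of 13.18 with T+E2 and 12.91 untreated. Setdb1 stood at 9.13 and 8.76, and Atf7ip, the partner that stabilises Setdb1, at 11.54 and 10.83. Chd4, the remodeller of the NuRD complex, differed most (9.38 with T+E2 and 8.40 untreated, 0.97), while the deacetylase genes Hdac1 (-0.30) and Hdac2 (-0.39) and the silencer gene Morc3 (-0.44) were lower by less than 2-fold. With the span trend subtracted the median of the list was 0.07, with 14 above 0.

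Zfp genes with roles in mesenchymal fate were listed next. Of 8 listed, 5 were measured, all above 0, with 1 at least 2-fold higher and a median of 0.61. Above 0 lay 55.8% of all measured genes, and 4.96% were at least 2-fold higher. With the span trend subtracted, the 5 genes had a median of 0.29, and 0 reached 2-fold. Besides Zfp521, these were Zfp395 (1513 with T+E2 and 954 untreated), Zfp516 (3954 and 2600), Zfp217 (1061 and 784) and Zfp467 (247 and 241). Zfp516 encodes an activator of the brown fat programme, and Zfp467 promotes fat over bone fate. Zfp423, which commits precursors to the fat lineage, lay below the floor on both arrays.

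Among factors linked to steroid receptors 4 of 5 listed genes were measured and 0 were 2-fold different, where 4.96% of all measured genes were higher and 4.01% lower. Zfp318, whose protein binds the androgen receptor and alters its activity, read 779 with T+E2 and 434 untreated (0.85). Its 5 measured probe sets all lay on the high side, from 0.76 to 1.08. Those at 1.08 and 0.83 reached the floor with T+E2 alone, so their side was set by the floor. Zfp703 read 2387 with T+E2 and 2112 untreated (0.18), and Zfp764 read 882 and 868 (0.02). Zfp318 was under 2-fold on the probe set that gave its value. Zfp703, Zfp217 and Zfp764 had 1 measured probe set each, so agreement between probe sets cannot be compared across these genes.

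Of 23 listed developmental and general transcription factors 18 were measured, with 3 at least 2-fold higher (Zfp462, Zfp704 and Zfp407), 1 lower (Zfp40) and a median of 0.21, where 4.96% of all measured genes were higher and 4.01% lower. The 3 higher genes have long spans, and with the span trend subtracted 0 of the list were 2-fold higher (0.69 for Zfp462, 0.63 for Zfp704 and 0.45 for Zfp407). Zfp827 (1283 with T+E2 and 646 untreated, 0.99) came just under 2-fold, with both probe sets alike. Zfp281, a GC-box factor of pluripotent cells, read 4939 with T+E2 and 3460 untreated (0.51). Zfp652 read 222 with T+E2 and 143 untreated (0.64), with probe sets up to 1.72. Zfp292 (0.48), Zfp384 (0.39), Zfp219 (0.22), Zfp111 (0.21), Zfp503 (0.15) and Zfp148 (0.11) were nearer 0. Zfp335 (-0.00), Zfp110 (-0.10), Zfp263 (-0.19), Zfp655 (-0.26) and Zfp24 (-0.35) were level or lower, and the probe sets of Zfp148, Zfp263 and Zfp655 lay on opposite sides.

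Some Zfp genes encode proteins of RNA, ribosomes or the spindle. The list made for them also held genes of other roles, among them Zfp277, whose protein is the Bmi1 partner named above, and Zfp451. Of 15 listed 14 were measured, with 0 at least 2-fold higher, 1 lower (Zfp277) and a median of -0.01, where 4.96% of all measured genes were higher and 4.01% lower. Zfp622, a factor of large ribosomal subunit maturation, stood at a log2 intensity of 13.70 with T+E2 and 13.62 untreated, with 3 probe sets differing by 0.07 to 0.15. Zfp106, an RNA-binding protein needed by motor neurons, read 8022 with T+E2 and 4122 untreated (0.96), and Zfp593 read 502 with T+E2 and 955 untreated (-0.93).

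Zfp207, which encodes the spindle protein BuGZ, depended on the probe set. The one that gave its value read 4239 with T+E2 and 5558 untreated (-0.39). The other 4 measured probe sets were lower with T+E2 by more, at -1.41, -1.60, -2.04 and -2.19. The deepest of these read 571 with T+E2 and 2600 untreated. All 5 lay on the low side, so the gene counts as under 2-fold only by the choice of the probe set with the highest mean.

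On the probe sets that gave the values, the rest of this list stayed within 1.5-fold. Zfp346 (0.45), Zfp365 (0.44), Zfp800 (0.27), Zfp830 (0.24) and Zfp326 (0.12) were above 0, and Zfp451 (-0.09), Zfp598 (-0.18), Zfp330 (-0.23) and Zfp638 (-0.41) were below it. Zfp598 encodes the ubiquitin ligase that marks collided ribosomes, and Zfp451 a SUMO ligase. The other measured probe sets of Zfp451 lay on opposite sides, at 1.09, 1.07 and -0.29. Those of Zfp800 differed by 0.65 and 0.87, more than the one that gave its value. The probe sets with the highest mean intensity among all members were those of Zfp622, Zfp106, Zfp91, Zfp251 and Zfp655, though the brightness of different probe sets does not rank transcripts. Zfp91 read 6082 with T+E2 and 5294 untreated, and Zfp251 read 7162 with T+E2 and 5223 untreated.

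Other zinc finger families were measured beside the Zfp genes, with medians above 0 for Zbtb, Zscan with Zkscan, and Klf. Zfp symbols that end in a letter were set apart by symbol alone, not as another family, and had a median below 0. Over all measured genes, 55.8% were above 0, 4.96% at least 2-fold higher and 4.01% lower. Of 33 measured Zbtb genes, whose proteins join zinc fingers to a BTB domain for pairing, 28 were above 0, with 5 at least 2-fold higher, 0 lower and a median of 0.55. Zbtb16 was highest of them, by at least 3.87 (log2). Of 12 measured Zscan and Zkscan genes, whose proteins carry a SCAN domain, 9 were above 0, with 1 higher, 0 lower and a median of 0.19. The 12 measured Krüppel-like factor (Klf) genes were all above 0, with 3 higher and a median of 0.62. The symbols ending in a letter, such as Zfp119a (-0.66) and Zfp385a (1.17), had 10 of 22 above 0 and a median of -0.12. Counted with them were Zfp36l1 (0.49) and Zfp36l2 (0.62), whose symbols extend that of the excluded Zfp36. With the span trend subtracted the medians were 0.31 for Zbtb, 0.27 for Zscan and Zkscan, 0.61 for Klf, -0.13 for the lettered symbols and 0.01 for the Zfp genes. These are descriptions of 1 pair of arrays, and the differences between these groups were not tested.

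**Figure D4:**
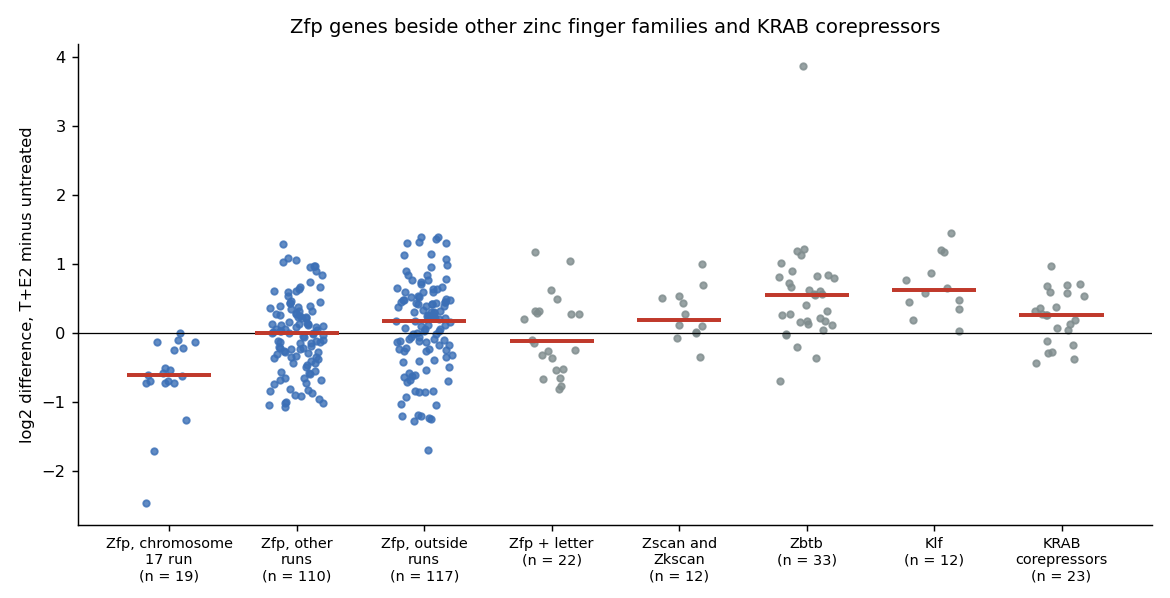
Each point is the log2 difference (T+E2 minus untreated) of a measured gene, and red bars are medians. The chromosome 17 run centres at -0.62, Zfp genes in other runs at -0.00 and outside runs at 0.18, and the Zbtb and Klf genes at 0.55 and 0.62.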

How the data were processed

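The deposited intensity of each probe set was linear, ranging from 3.75 to 71889 in the files, and GCRMA is named in the submitters' processing notes with no version given in the sources used here. Log2 was taken and values under 5 were raised to 5 before differences (T+E2 minus untreated) were formed. Where 1 array lay under the floor, a fold is a lower bound. A gene was called at 2-fold (log2 difference of 1 or more, or -1 or less). Of 45101 probe sets, 64 were controls, 34945 named 1 gene, 932 named several and 9160 were not listed. Symbols were updated by gene identifier through the RefSeq table (GRCm38.p6), where 18032 of 18193 genes matched. The probe set with the highest mean gave a gene's value.

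The 18 hybridisation spikes differed by -0.25 to 0.09. The number of arrays, 1 per group, limits the precision. Members and lists were chosen with earlier results of these data known. Named were the 10 largest differences in each direction, genes at the floor on 1 array, the 5 brightest, those nearest the floor and listed genes. The planned grouping by KRAB box needs protein sequences, which were not used here. Runs came from the order of genes in the RefSeq table. Promoters were aligned locally, in pairs. Analyses used Python 3.11.15, pandas 2.3.3 and statsmodels 0.14.6.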

Additional observations from a re-analysis of the deposited data

How the results depend on the processing

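Over 10 alternatives (floors of 4, 6 and 7, the mean of all measured probe sets, removal of probe sets ending in _s_at, _x_at or _a_at, centring, span and level trends, the platform's symbols, and the floor on both arrays), the count of Zfp genes at least 2-fold higher with T+E2 ran from 10 to 13 and that of lower ones from 14 to 19. The median of all Zfp genes ran from -0.11 to 0.05, so its sign is not settled. The median of the chromosome 17 run ran from -0.69 to -0.59, with 17 to 19 members below 0. Medians ran from -0.20 to -0.06 in runs and from 0.10 to 0.21 outside, also when 1, 5 or 10 other genes were allowed between neighbours, settings added after the data were seen. Of the 21 named genes at 2-fold, all 21 kept their direction under each alternative that gave a value, and 10 stayed at 2-fold in each. Zfp40 stood at -1.27 with the mean of its measured probe sets, Zfp592 at 0.62, Zfp704 at 0.88 and Zfp319 at 0.94. With a floor of 7, Zfp949 stood at -0.59, Zfp248 at -0.12 and Zfp316 at 0.68. Zfp438, whose side was set by the floor, stood at 0.40 with a floor of 6. The KRAB groups and their alternatives were not run. No paired analysis was possible because each group has 1 array, which also leaves no replicate to leave out.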
